A study of Homo sapiens with 12 samples.

Results

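Kinesins are microtubule motors, and the 42 gene symbols studied here are those of the count tables that are written KIF followed by a number, with or without a letter A to C, or KIFC followed by a digit. They were 42 of 43236 symbols. For the comparison asked of them they were divided by known role into 14 mitotic kinesins, 15 transport kinesins and 13 others. A filter on low counts kept 37 of them among the 15979 genes tested, namely 12 mitotic, 15 transport and 10 other kinesins. The 5 left untested were KIF2B and KIF12, with no read in any library, KIF19 with at most 1 read, KIF25 with at most 4 and KIF4B with at most 7.

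A kinesin couples ATP hydrolysis to movement along, or disassembly of, a microtubule. Mitotic kinesins build the spindle, move chromosomes to its equator and complete cytokinesis, and their mRNAs peak in G2 and mitosis in cycling cells. Transport kinesins carry vesicles, mitochondria, endosomes and ciliary components, and are used in dividing and resting cells alike.

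The cells were MNNG/HOS, an established human osteosarcoma line that the labels name HOS-MNNG. They had been given the solvent DMSO or 300 nM NXP800, a small oral molecule studied here for its effect on stress signalling, for 6 h or for 24 h, with 3 libraries in each of the 4 groups (DMSO 6 h, NXP800 6 h, DMSO 24 h and NXP800 24 h). Libraries of polyA RNA held 30810614 to 31947656 reads on genes. The labels number the replicates without saying what separates them, so that p-values measure the spread between these samples, which may be technical. All 12 libraries came from a single line. The osteoblast genes RUNX2 (20.7 to 42.5 CPM, the read count scaled by the TMM-adjusted library size), COL1A1 (143 to 566 CPM) and SPARC (91.7 to 615 CPM) and the mesenchymal gene VIM (3340 to 5890 CPM) were present, SPP1 was at 6.29 to 75 CPM, and the osteoblast markers SP7, ALPL, IBSP, BGLAP and COL1A2 had at most 12 reads. Among epithelial markers EPCAM was at 5.59 to 10.2 CPM, and CDH1 and KRT19 had at most 2 and 5 reads. The blood gene PTPRC had at most 5 reads, and the endothelial genes PECAM1 and CDH5 at most 29 and 7. Reads on no annotated gene were 6.66 to 8.14% in the 6 h libraries and 2.73 to 3.67% in the 24 h libraries, and the part of this in the differences between the times was not tested.

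The promoters of the kinesins differed by class in letters that the expression measurements did not use. Many genes of G2 and mitosis carry a CCAAT box, bound by NF-Y, a short way upstream of a CHR element, at which the MuvB-containing complexes DREAM, B-MYB-MuvB and FOXM1-MuvB bind. RefSeq promoter windows of GRCh38.p14, from 250 bases before to 50 after the annotated start, were found for 34 of the 42 members. The members without a window were all transport or other kinesins, KIFC3 among them. The CHR element was searched as TTTGAA or TTCGAA and the CCAAT box as CCAAT, both on either strand. In the stretch from 80 bases before to 10 after the start, a choice made after the positions were seen, a CHR match stood in 10 of 14 mitotic kinesins (71.4%), 0 of 11 transport kinesins and 1 of 9 others, against 5.6% of 27305 genes with a window. Both elements stood together in 9 mitotic kinesins (64.3%), 0 transport kinesins, 1 other kinesin (KIF24) and 1.06% of all genes. Over the whole window of 300 bases both stood in 71.4% of mitotic and 9.09% of transport kinesins (KIF5B). The shares were 11.1% of other kinesins and 7.85% of all genes. The 14 mitotic windows include those of KIF2B and KIF4B, which were not tested for expression. KIF2B had no match near its start, and KIF4B, a copy of KIF4A, had both in letters nearly the same as those of KIF4A. Of the tested mitotic kinesins, KIF2C had no match anywhere in its window and KIF20B had none near its start. Both were lower with NXP800 at 24 h all the same (log2 fold change -0.94 for KIF2C and -1.16 for KIF20B). A match describes letters only and is not a measured site. The following stretches, in the gene's own direction, show 6 mitotic kinesins with both elements, then KIF20A, which had the largest fall of the class and only the CCAAT box, then KIF24 from the other class, and last KIF1A, the transport kinesin with the largest rise and no match. Capitals mark the matches, and a match on the opposite strand appears as its reverse complement.
KIF11 (chr10:92593050-92593139, plus strand): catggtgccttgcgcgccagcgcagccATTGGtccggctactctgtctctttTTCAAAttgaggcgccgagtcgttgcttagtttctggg
KIF18A (chr11:28108147-28108236, minus strand): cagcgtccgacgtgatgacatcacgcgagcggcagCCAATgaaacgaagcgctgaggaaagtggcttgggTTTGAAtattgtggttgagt
KIF14 (chr1:200620742-200620831, minus strand): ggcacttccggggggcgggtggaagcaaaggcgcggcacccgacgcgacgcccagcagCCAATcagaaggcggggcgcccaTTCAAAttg
KIFC1 (chr6:33391743-33391832, plus strand): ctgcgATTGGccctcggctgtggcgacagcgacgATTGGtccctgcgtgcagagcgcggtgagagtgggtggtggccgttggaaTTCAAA
KIF23 (chr15:69414269-69414358, plus strand): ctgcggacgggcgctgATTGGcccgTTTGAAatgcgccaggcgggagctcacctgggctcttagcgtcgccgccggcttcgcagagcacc
KIF22 (chr16:29790671-29790760, plus strand): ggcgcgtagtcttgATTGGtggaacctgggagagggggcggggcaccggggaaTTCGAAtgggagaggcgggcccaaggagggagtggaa
KIF20A (chr5:138179032-138179121, plus strand): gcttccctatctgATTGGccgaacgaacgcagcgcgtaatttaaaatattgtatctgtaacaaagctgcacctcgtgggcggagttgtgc
KIF24 (chr9:34329259-34329348, minus strand): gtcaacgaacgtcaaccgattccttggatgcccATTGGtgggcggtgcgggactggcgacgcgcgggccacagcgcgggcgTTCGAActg
KIF1A (chr2:240821394-240821483, minus strand): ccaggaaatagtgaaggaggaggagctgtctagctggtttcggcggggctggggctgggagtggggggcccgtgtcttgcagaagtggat

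**Figure D1:**
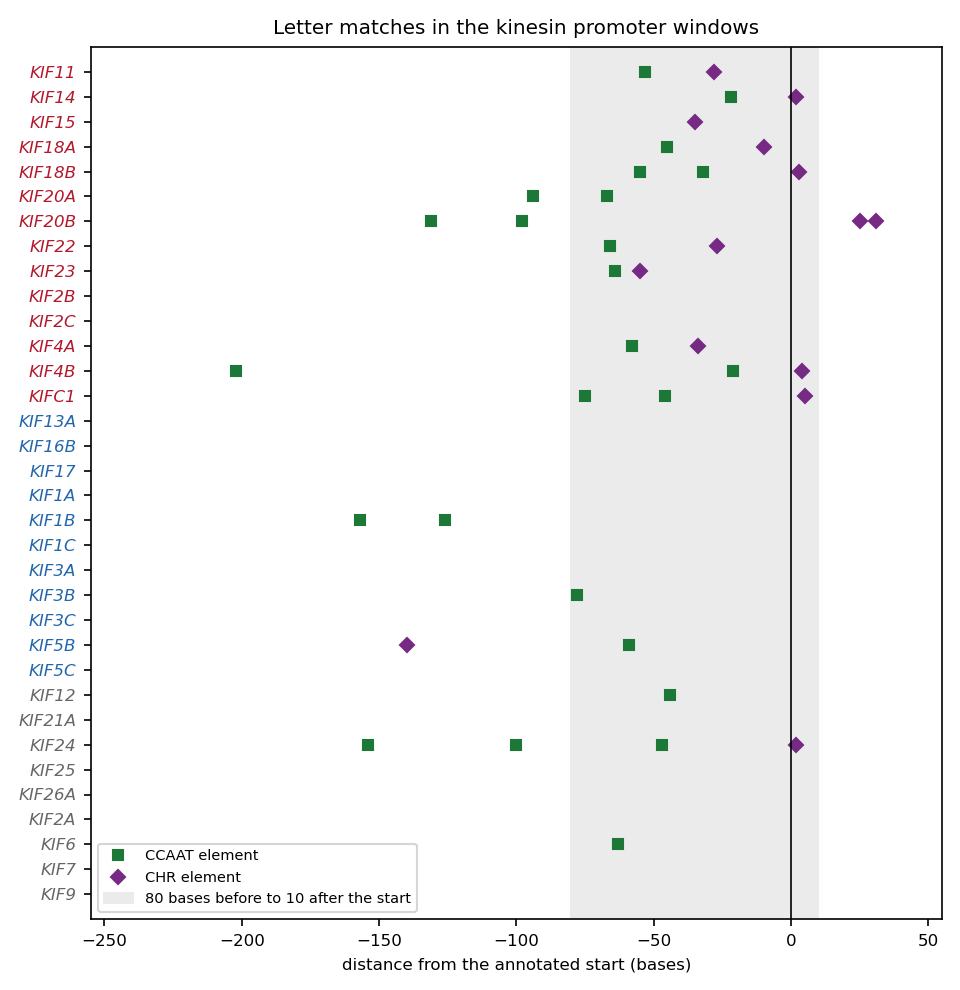
Positions of the CHR and CCAAT letter matches in the promoter windows of the 34 kinesins that had one (first RefSeq window of each gene), in bases from the annotated start at 0, with mitotic names in red, transport names in blue and others in grey. The shaded stretch runs from 80 bases before to 10 after the start, and holds a CHR match in 10 of the 14 mitotic rows, in 0 of the 11 transport rows and in the KIF24 row of the others.

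The summed mRNA of the mitotic kinesins was lower with NXP800 at 24 h, and that of the transport kinesins stayed near its DMSO level. The summed mRNA of the mitotic class was 1250, 1280 and 1160 CPM in the DMSO 24 h libraries and 574, 525 and 498 CPM in the NXP800 24 h libraries, that is 1230 ± 66.1 against 532 ± 38.4 CPM (mean ± SD, n = 3), or 43.2% of DMSO. The same sum at 6 h was 1120 ± 27 CPM with DMSO and 992 ± 61.2 CPM with NXP800, 88.6% of DMSO. The transport class summed to 975 ± 19.7 against 970 ± 21.5 CPM at 6 h and to 999 ± 42.5 against 971 ± 10.5 CPM at 24 h, which is 99.6% and 97.3% of DMSO. The other kinesins summed to 208 ± 3.4 against 216 ± 5.56 CPM at 6 h and to 206 ± 15.1 against 225 ± 10.4 CPM at 24 h. No test was run on these sums. In RNA from whole cultures, fewer cells in G2 and mitosis and less kinesin mRNA in each such cell cannot be told apart.

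**Figure D2:**
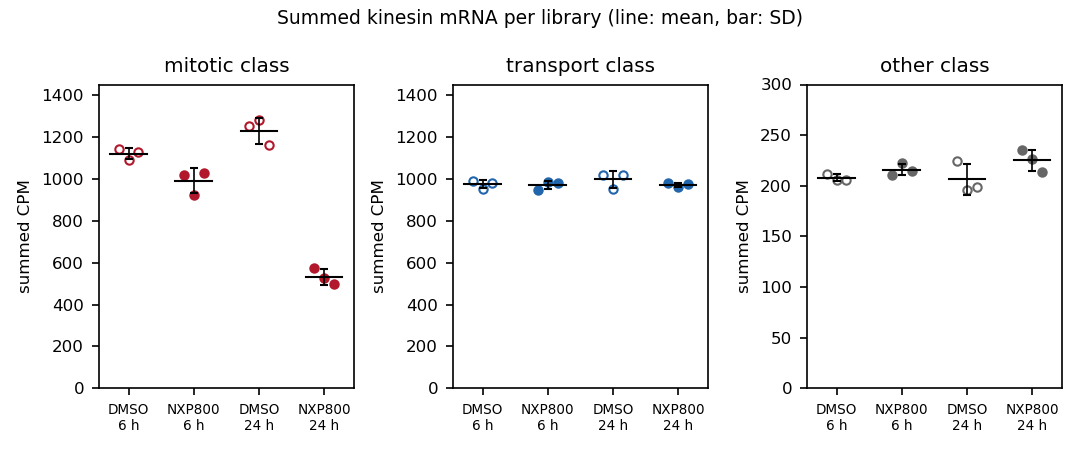
Summed CPM of the mitotic, transport and other kinesins (vertical axes from 0) in each of the 12 libraries, with open points for DMSO, filled points for NXP800, lines for means and bars for SD of 3 libraries. The mitotic sum is 532 CPM in NXP800 24 h against 1230 CPM in DMSO 24 h, while the transport sums lie between 946 and 1020 CPM in all 12 libraries.

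Gene by gene, edgeR's quasi-likelihood test with a Benjamini-Hochberg adjusted p below 0.05 over all 15979 genes gave the calls. At 24 h, 12 of 12 tested mitotic kinesins were lower with NXP800 and 10 of them by more than 2-fold, where 28.6% of all tested genes were called lower and 27.5% higher. Their median log2 fold change was -1.21 (range -2.30 to -0.84), beside -0.003 over all tested genes. In each of the 12, every NXP800 24 h library lay below every DMSO 24 h library, which held for 30.1% of all tested genes. Of the 15 transport kinesins at 24 h, 4 were lower, 4 were higher and 7 did not pass, with a median of 0.054 (range -0.74 to 2.49). Without NXP800 24 h replicate 2 the transport counts were 2 lower and 2 higher, and without DMSO 24 h replicate 1 they included 2 higher. In this division into classes, drawn with results known, the ranges did not overlap, since the smallest mitotic fall (KIF22, -0.84) was larger than the largest transport fall (KIF3C, -0.74). Without replicate 2 of DMSO 24 h both stood at -0.78. With KIF2A (0.053, not called) counted as mitotic, 12 of 13 were lower and the ranges overlapped. Of the 10 other kinesins, 3 were lower and 5 were higher, with a median of 0.18.

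At 6 h the classes were much closer. Among mitotic kinesins 6 were lower, 2 were higher and 4 did not pass, with a median log2 fold change of -0.21 (range -0.73 to 0.29) beside -0.046 over all tested genes, of which 27.8% were called lower and 25% higher. Transport kinesins again divided into 4 lower, 4 higher and 7 not called, with a median of 0.005 (range -0.63 to 0.57). Among other kinesins 1 was lower and 3 were higher. With the replicate number as a block, the count of lower mitotic kinesins at 6 h was 8. That block also raised the calls at 6 h among all 15979 tested genes, from 8435 to 9953. The response at 24 h was then compared with the response at 6 h in the same model. It was more negative at 24 h for 12 of 12 mitotic kinesins, with a median difference of -1.04 on the log2 scale (range -1.57 to -0.69), where 13.8% of all tested genes were called lower and 12% higher in this difference. Among transport kinesins 3 were lower and 2 higher in the difference, and among the others 2 were lower and 2 higher.

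**Figure D3:**
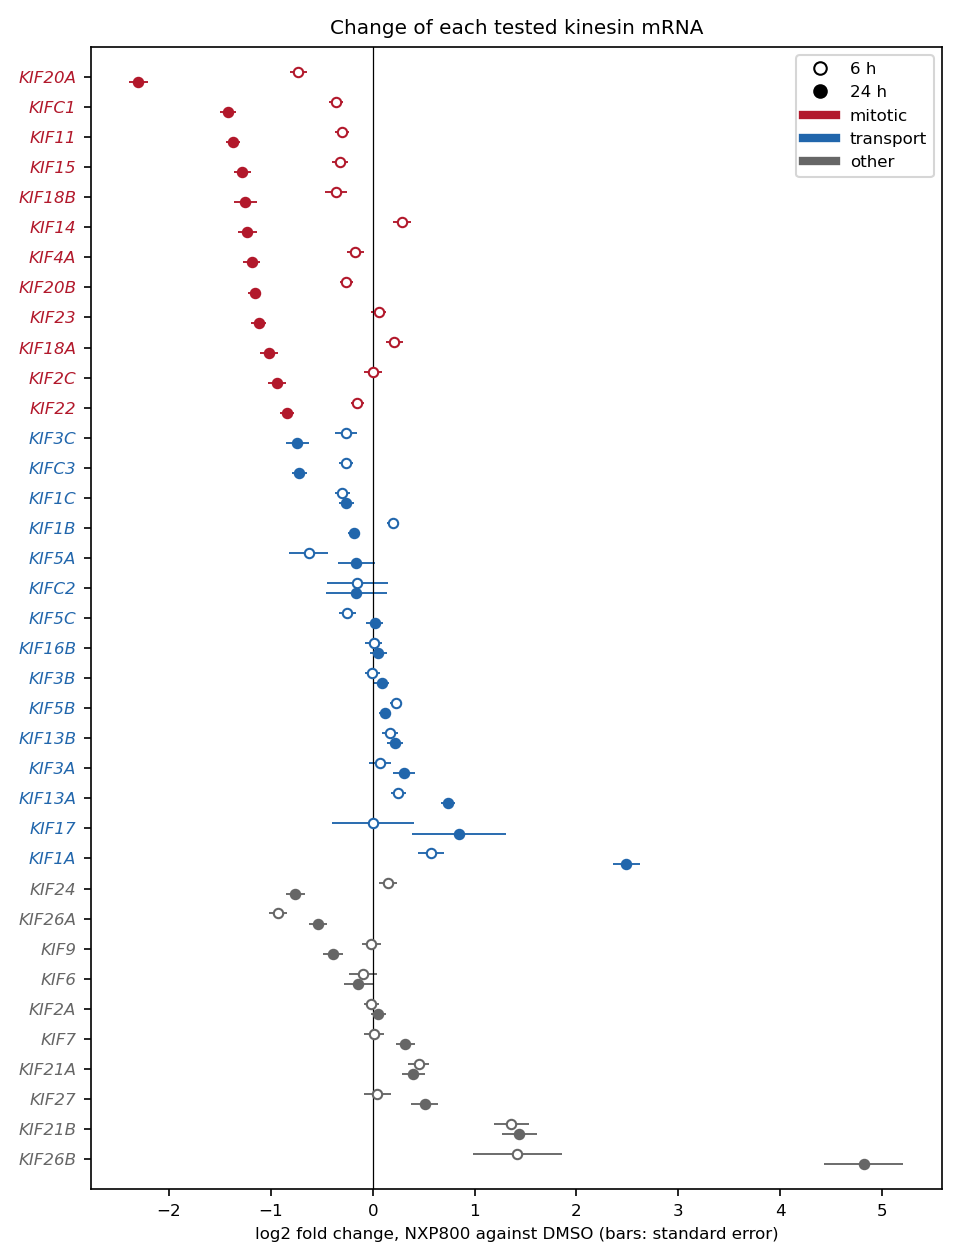
Log2 fold change of NXP800 against DMSO (horizontal axis) for each of the 37 tested kinesins, open circles at 6 h and filled circles at 24 h, with bars for the standard error of the edgeR fit, and red, blue and grey for mitotic, transport and other kinesins. The 12 filled red circles lie from -2.30 to -0.84, left of all 15 filled blue circles, and KIF26B (4.82) and KIF1A (2.49) stand at the far right at 24 h.

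The motors that set up the spindle are described first. KIF11 is the kinesin-5 that slides antiparallel microtubules apart to make the spindle bipolar. It stood at 135, 134 and 133 CPM with DMSO and 109, 105 and 112 CPM with NXP800 at 6 h. KIF11 at 24 h was at 148, 128 and 129 CPM with DMSO and 56.9, 50.8 and 49 CPM with NXP800. No NXP800 library reached a DMSO library of the same time. The log2 fold change was -0.30 ± 0.069 (SE, adjusted p = 0.00161) at 6 h and -1.37 ± 0.071 (SE, adjusted p = 2.98e-10) at 24 h, a 0.387-fold level. KIF15, a kinesin-12 that can hold poles apart when KIF11 is lost, was less abundant, at 34.9, 35.3 and 32.3 CPM with DMSO and 26.6, 28.2 and 27.4 CPM with NXP800 at 6 h. KIF15 at 24 h read 30.3, 35.9 and 33.4 CPM with DMSO and 12.9, 14.8 and 13.4 CPM with NXP800. It fell at both times, -0.32 ± 0.079 (SE, adjusted p = 0.00308) and -1.28 ± 0.083 (SE, adjusted p = 3.05e-09). KIFC1, also called HSET, is a kinesin-14 that walks toward microtubule minus ends and gathers extra centrosomes into poles. Its libraries read 109, 108 and 110 CPM with DMSO and 92.9, 75.7 and 86.1 CPM with NXP800 at 6 h. KIFC1 at 24 h read 134, 142 and 134 CPM with DMSO and 55.5, 48.5 and 49.3 CPM with NXP800, again without overlap. The change was -0.36 ± 0.073 (SE, adjusted p = 0.000567) at 6 h and -1.42 ± 0.075 (SE, adjusted p = 3.49e-10) at 24 h, the second largest fall of the class. Exons of a ribosomal protein pseudogene on the opposite strand share 14% of the exon length of KIFC1.

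KIF20A had the largest fall of all kinesins at 24 h. This motor, also called MKLP2, brings Aurora B and its partners from the chromosomes to the central spindle at anaphase. It was at 111, 95.9 and 106 CPM with DMSO and 66.3, 57.4 and 66 CPM with NXP800 at 6 h, and at 122, 129 and 116 CPM with DMSO and 28.2, 23.8 and 22.8 CPM with NXP800 at 24 h. Every NXP800 library was well under the DMSO range at both times. The log2 fold changes were -0.73 ± 0.084 (SE, adjusted p = 2.48e-06) and -2.30 ± 0.089 (SE, adjusted p = 2.18e-11), which are 0.605-fold and 0.203-fold levels, and the 24 h change minus the 6 h change was -1.57 ± 0.12 (SE, adjusted p = 3.63e-07). Exons of BRD8 on the opposite strand share 5.35% of its exon length. KIF23, or MKLP1, is the motor subunit of centralspindlin, which bundles the central spindle and recruits the exchange factor ECT2. It read 137, 131 and 138 CPM with DMSO and 144, 132 and 146 CPM with NXP800 at 6 h, with overlapping groups, and 126, 126 and 107 CPM with DMSO and 57.6, 56.9 and 50.3 CPM with NXP800 at 24 h. The change was 0.058 ± 0.073 (SE, adjusted p = 0.53) at 6 h, which did not pass, and -1.12 ± 0.076 (SE, adjusted p = 4.44e-09) at 24 h. KIF20B, a relative of KIF20A that acts late in cytokinesis, was at 81.3, 76.7 and 79.7 CPM with DMSO and 69.5, 59.8 and 69.5 CPM with NXP800 at 6 h. KIF20B at 24 h was at 57, 59.2 and 58.6 CPM with DMSO and 26, 26.6 and 25.4 CPM with NXP800. The groups stood apart at both times. Its log2 fold changes were -0.26 ± 0.065 (SE, adjusted p = 0.00352) and -1.16 ± 0.068 (SE, adjusted p = 1.11e-09).

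KIF14 and KIF18A rose at 6 h and fell at 24 h. KIF14 works at the central spindle and midbody with citron kinase. Its libraries were at 54.7, 49.5 and 53.7 CPM with DMSO and 61.1, 60.6 and 71.3 CPM with NXP800 at 6 h. KIF14 at 24 h was at 46.7, 47.5 and 47.4 CPM with DMSO and 20.5, 22.7 and 17.2 CPM with NXP800, so that the NXP800 group lay above DMSO at the early time and below it at the late one. The log2 fold changes were 0.29 ± 0.088 (SE, adjusted p = 0.011) and -1.23 ± 0.093 (SE, adjusted p = 1.64e-08), and their difference was -1.52 ± 0.13 (SE, adjusted p = 9.79e-07). KIF18A is a kinesin-8 that damps chromosome oscillations at the metaphase plate. It was at 37.5, 39.1 and 34.3 CPM with DMSO and 45.6, 40.4 and 42.5 CPM with NXP800 at 6 h. KIF18A at 24 h was at 33.9, 34.1 and 28.4 CPM with DMSO and 16.5, 15.1 and 16 CPM with NXP800, with no overlap at either time. The changes were 0.21 ± 0.083 (SE, adjusted p = 0.0397) and -1.02 ± 0.087 (SE, adjusted p = 6.96e-08), with a difference of -1.23 ± 0.12 (SE, adjusted p = 3.66e-06). The 6 h calls were lost on leaving out a single library, for KIF14 without DMSO replicate 2 (adjusted p = 0.0539) or NXP800 replicate 3 (0.0714), and for KIF18A without replicate 1 or 3 of either 6 h group (0.0721 to 0.161). KIF18B, the other kinesin-8 of the class, trims astral microtubules and was lower at 6 h already. It stood at 79.5, 74.9 and 92.1 CPM with DMSO and 66.2, 54.1 and 71.4 CPM with NXP800 at 6 h. KIF18B at 24 h was at 128, 134 and 107 CPM with DMSO and 54.9, 53.3 and 47.3 CPM with NXP800. It fell at both times, -0.36 ± 0.11 (SE, adjusted p = 0.00949) and -1.25 ± 0.11 (SE, adjusted p = 8.35e-08), and the 6 h call was lost without DMSO replicate 3 (adjusted p = 0.0573) or NXP800 replicate 2 (0.0621).

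The 2 chromokinesins and the depolymerase KIF2C were lower with NXP800 at 24 h, with no call at 6 h. KIF4A binds chromosome arms and, with PRC1, sets the length of the central spindle. It read 85.9, 79.3 and 80.7 CPM with DMSO and 74.3, 67.4 and 77.4 CPM with NXP800 at 6 h. KIF4A at 24 h read 75.1, 67.2 and 71.7 CPM with DMSO and 35.4, 27.2 and 31.2 CPM with NXP800. The log2 fold change was -0.17 ± 0.083 (SE, adjusted p = 0.104) at 6 h, where it passed with the replicate block (-0.17, adjusted p = 0.011), and -1.19 ± 0.087 (SE, adjusted p = 1.04e-08) at 24 h. Reads of KIF4A can be hard to part from those of KIF4B, an intronless copy whose transcript is 94.3% identical to that of KIF4A, but KIF4B held at most 7 reads in a library. KIF22, or Kid, pushes chromosome arms away from the poles, and an RNA on the opposite strand shares 7.83% of its exon length. It was at 134, 140 and 136 CPM with DMSO and 128, 119 and 123 CPM with NXP800 at 6 h. KIF22 at 24 h was at 163, 180 and 153 CPM with DMSO and 98.5, 87.3 and 91.4 CPM with NXP800. It showed the smallest fall of the class, -0.84 ± 0.068 (SE, adjusted p = 3.61e-08) at 24 h after -0.15 ± 0.067 (SE, adjusted p = 0.08) at 6 h, and the 6 h value passed with the block (-0.15, adjusted p = 0.0373). KIF2C, or MCAK, is a kinesin-13 that removes wrongly attached microtubules from kinetochores. It stood at 136, 125 and 138 CPM with DMSO and 140, 122 and 138 CPM with NXP800 at 6 h, where the groups overlapped, and at 189, 201 and 172 CPM with DMSO and 111, 98.2 and 84.3 CPM with NXP800 at 24 h, where they did not. The change was 0.003 ± 0.09 (SE, adjusted p = 0.982) at 6 h and -0.94 ± 0.091 (SE, adjusted p = 2.79e-07) at 24 h. Per kilobase of canonical transcript, KIF22 (79.4 CPM per kb), KIF2C (65.4) and KIFC1 (57.1) were the most abundant of the 12 tested mitotic kinesins in DMSO 24 h, and KIF14 (6.47) and KIF15 (6.98) the least.

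**Figure D4:**
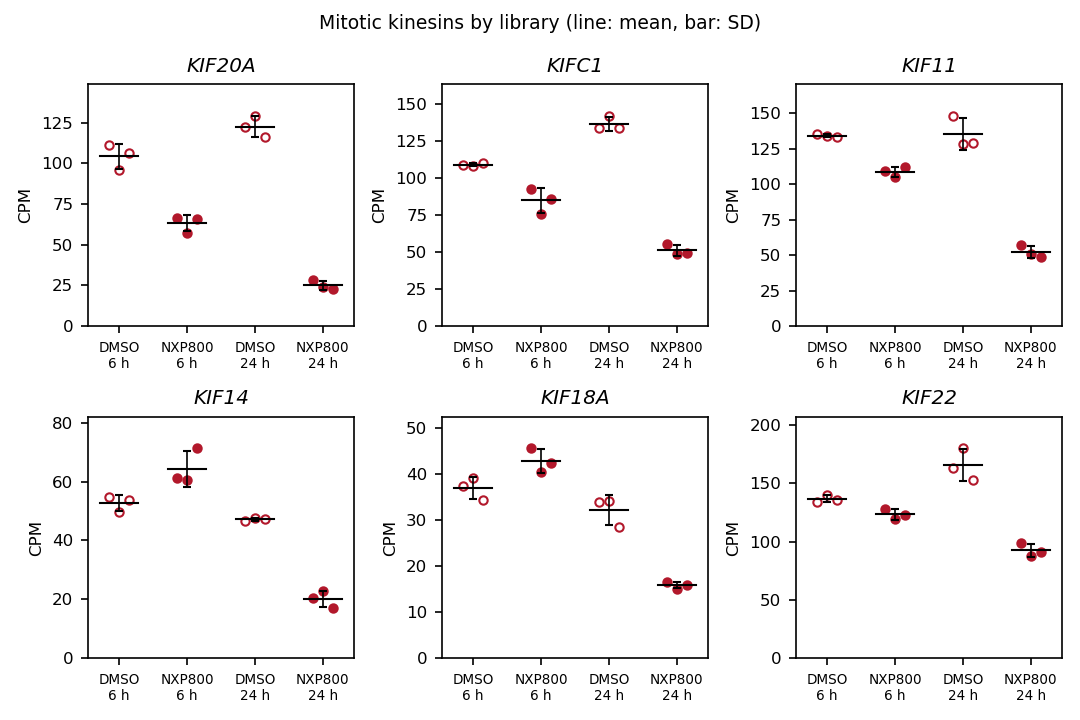
CPM of 6 mitotic kinesins (vertical axes from 0) in each library, open points DMSO and filled points NXP800, with lines for means and bars for SD of 3 libraries. KIF14 and KIF18A lie above DMSO at 6 h and below it at 24 h, KIF20A is at 24.9 CPM in NXP800 24 h against 122 CPM in DMSO 24 h, and KIF22 keeps the largest share of its DMSO level.

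Transport kinesins were called lower and higher at shares near those of all tested genes (26.7% each way at both times), and among them KIF1A moved farthest. KIF1A, a kinesin-3, carries synaptic vesicle precursors and dense-core vesicles in neurons. It was at 11.6, 12.7 and 11.5 CPM with DMSO and 17.7, 16.6 and 18.9 CPM with NXP800 at 6 h. KIF1A at 24 h was at 9.77, 7.83 and 10.8 CPM with DMSO and 43.9, 51.9 and 63.8 CPM with NXP800, above every DMSO library at both times. The log2 fold change was 0.57 ± 0.13 (SE, adjusted p = 0.00164) at 6 h and 2.49 ± 0.13 (SE, adjusted p = 3.78e-10) at 24 h, a 5.62-fold level, and the rise grew by 1.92 ± 0.18 (SE, adjusted p = 3.15e-06) between the times. The 4 neuronal markers examined summed to 4.81 to 5.42 CPM in DMSO 24 h and 11.6 to 15.4 CPM in NXP800 24 h. In them SYP was at 2.86 to 3.98 CPM and then 11.2 to 14.9 CPM, SNAP25 at 1.3 to 1.87 CPM and then 0.198 to 0.351 CPM, RBFOX3 at no more than 0.231 CPM, and STMN2 had no read in any library. Their part in the KIF1A result was not tested.

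The other kinesin-3 motors changed less. KIF13A moves recycling endosomes and mannose-6-phosphate receptor vesicles. It was at 42.8, 38.3 and 40.9 CPM with DMSO and 48.1, 47.7 and 49.6 CPM with NXP800 at 6 h. KIF13A at 24 h was at 44.3, 36.2 and 40.5 CPM with DMSO and 68, 67.8 and 67.1 CPM with NXP800, when the NXP800 libraries lay within 1 CPM of each other. It rose at both times, by 0.25 ± 0.073 (SE, adjusted p = 0.00746) and 0.74 ± 0.072 (SE, adjusted p = 3.01e-07). KIF1B, which carries mitochondria and vesicle precursors, was higher at 6 h and lower at 24 h. Its values were 65.6, 60.7 and 66 CPM with DMSO and 69.8, 76.8 and 74.2 CPM with NXP800 at 6 h. KIF1B at 24 h read 77, 73 and 75.6 CPM with DMSO and 68.7, 65.1 and 65.9 CPM with NXP800. The log2 fold changes were 0.20 ± 0.06 (SE, adjusted p = 0.0106) and -0.18 ± 0.06 (SE, adjusted p = 0.02). The 6 h call was lost without replicate 2 of either 6 h group (adjusted p = 0.06 without DMSO, 0.0537 without NXP800), and the 24 h call without DMSO replicate 1 (0.0648), without NXP800 replicate 2 (0.113), with scaling by library size alone (0.231), with no filter on low counts (0.122) or with the 24 h libraries alone (0.0634). KIF1C, a carrier of dense-core vesicles and of mRNA, was lower at both times. It stood at 263, 251 and 267 CPM with DMSO and 210, 212 and 212 CPM with NXP800 at 6 h. KIF1C at 24 h was at 319, 269 and 325 CPM with DMSO and 265, 232 and 265 CPM with NXP800. The changes were -0.30 ± 0.074 (SE, adjusted p = 0.00282) and -0.26 ± 0.074 (SE, adjusted p = 0.00655), the second being lost without NXP800 24 h replicate 2 (adjusted p = 0.0629). KIF13B gave 0.17 ± 0.08 (SE, adjusted p = 0.0827) at 6 h, where it passed with the block (0.17, adjusted p = 0.0357), and 0.22 ± 0.08 (SE, adjusted p = 0.0263) at 24 h, lost without DMSO replicate 1 (0.0936) or NXP800 replicate 2 (0.0562). KIF16B, a motor of early endosomes, did not pass at either time (0.009 ± 0.081, adjusted p = 0.932, and 0.054 ± 0.082, adjusted p = 0.596).

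Conventional kinesin, whose heavy chains are KIF5A, KIF5B and KIF5C, changed at 6 h. KIF5B is the form used in most tissues, and per kilobase of canonical transcript it was the third most abundant transport kinesin in DMSO 24 h (37 CPM per kb), after KIFC3 (46.7) and KIF1C (38.5). In DMSO 6 h KIF5B was the most abundant (46.3 CPM per kb), before KIFC3 (37.3) and KIF1C (32.9). KIF5B read 282, 269 and 264 CPM with DMSO and 303, 330 and 322 CPM with NXP800 at 6 h. KIF5B at 24 h read 224, 211 and 215 CPM with DMSO and 245, 241 and 220 CPM with NXP800, with overlap at the later time. The log2 fold change was 0.23 ± 0.061 (SE, adjusted p = 0.00497) at 6 h and 0.12 ± 0.062 (SE, adjusted p = 0.113) at 24 h, which passed when libraries were scaled by size alone (0.21, adjusted p = 0.00711) or NXP800 24 h replicate 3 was left out (0.17, adjusted p = 0.0413). KIF5A and KIF5C are forms best known from neurons. KIF5A was scarce, 4.18, 3.97 and 5.65 CPM with DMSO and 3.16, 2.42 and 3.35 CPM with NXP800 at 6 h, a change of -0.63 ± 0.19 (SE, adjusted p = 0.00935) that was lost without DMSO replicate 3 (0.0632) or NXP800 replicate 2 (0.053). At 24 h KIF5A was at 5.12, 6.83 and 4.74 CPM with DMSO and 4.26, 5.33 and 5.36 CPM with NXP800. The change was -0.16 ± 0.18 (SE, adjusted p = 0.469). The difference of the KIF5A responses passed with the replicate block (0.47, adjusted p = 0.0469) but not without it (adjusted p = 0.195). KIF5C changed by -0.25 ± 0.084 (SE, adjusted p = 0.02) at 6 h, lost without DMSO replicate 1 (0.106) or NXP800 replicate 3 (0.0571), and by 0.022 ± 0.083 (SE, adjusted p = 0.838) at 24 h.

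Kinesin-2 carries components along cilia, and also works in the cytoplasm, as a heterotrimer of KIF3A, a second motor (KIF3B or KIF3C) and the accessory subunit KIFAP3. KIF3A stood at 16.3, 17.1 and 17.2 CPM with DMSO and 16.1, 16.6 and 20.4 CPM with NXP800 at 6 h. KIF3A at 24 h was at 12.8, 14.7 and 12.2 CPM with DMSO and 15.5, 18.7 and 15.1 CPM with NXP800. It gave 0.07 ± 0.11 (SE, adjusted p = 0.616) at 6 h and 0.31 ± 0.11 (SE, adjusted p = 0.0262) at 24 h, a call lost without DMSO 24 h replicate 1 (0.0736) or 3 (0.101) or NXP800 24 h replicate 2 (0.0985). KIF3B did not pass at 6 h (-0.005 ± 0.072, adjusted p = 0.96) or 24 h (0.088 ± 0.072, adjusted p = 0.318). KIF3C went the other way from KIF3A. Its values were 16.8, 20.3 and 16.4 CPM with DMSO and 13.3, 15.8 and 15.8 CPM with NXP800 at 6 h. KIF3C at 24 h read 21.3, 20.1 and 22.5 CPM with DMSO and 14.1, 10.9 and 13.3 CPM with NXP800, without overlap at either time. The log2 fold change was -0.26 ± 0.11 (SE, adjusted p = 0.0649) at 6 h, where it passed with the block (-0.25, adjusted p = 0.00969), and -0.74 ± 0.11 (SE, adjusted p = 3.57e-05) at 24 h. KIF17, the homodimeric kinesin-2, had 2 to 22 reads in a library and did not pass (0.85 ± 0.46, adjusted p = 0.127 at 24 h). The minus-end motor KIFC3, linked to cell junctions and the Golgi, fell at both times. It was at 124, 122 and 130 CPM with DMSO and 104, 104 and 106 CPM with NXP800 at 6 h. KIFC3 at 24 h was at 150, 161 and 159 CPM with DMSO and 84.1, 96.1 and 105 CPM with NXP800, and every NXP800 library lay below the DMSO range. It changed by -0.26 ± 0.07 (SE, adjusted p = 0.00556) and -0.72 ± 0.071 (SE, adjusted p = 3.25e-07). KIFC2, a minus-end motor of neurites, did not pass (-0.16 ± 0.3, adjusted p = 0.68 at 24 h), and FOXH1 on the opposite strand shares 17.8% of its exon length.

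Outside both classes KIF26B had the largest rise of all kinesins, from very few reads. KIF26B and KIF26A are kinesin-11 proteins that bind microtubules without working as ATP-driven motors. KIF26B was at 0.729, 0.504 and 0.334 CPM with DMSO and 1.41, 1.29 and 1.5 CPM with NXP800 at 6 h. KIF26B at 24 h was at 0.669, 0.168 and 0.343 CPM with DMSO and 16.1, 11.7 and 6.03 CPM with NXP800. In reads these were 5 to 20 in DMSO 24 h and 189 to 489 in NXP800 24 h, so that the groups were far apart while the NXP800 libraries spread widely among themselves. The fitted log2 fold change was 1.42 ± 0.44 (SE, adjusted p = 0.0124) at 6 h, lost without DMSO 6 h replicate 3 (adjusted p = 0.0565), and 4.82 ± 0.39 (SE, adjusted p = 4.01e-08) at 24 h. KIF26A, in contrast, read 29.7, 26.7 and 29.1 CPM with DMSO and 15.4, 15.8 and 13.8 CPM with NXP800 at 6 h. KIF26A at 24 h read 45.5, 36.9 and 41 CPM with DMSO and 28.8, 25.9 and 30.1 CPM with NXP800, below DMSO at both times. It fell by 0.93 ± 0.093 on the log2 scale (SE, adjusted p = 5.31e-07) at 6 h, more than at 24 h (-0.54 ± 0.089, adjusted p = 7.45e-05), and the difference of responses (adjusted p = 0.0373) was lost in 8 of the 12 fits that left out 1 library (0.0603 to 0.0984).

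KIF21A and KIF21B are kinesin-4 motors that restrain microtubule growth, and both were higher with NXP800 at both times. KIF21B stood at 8.08, 8.48 and 8.2 CPM with DMSO and 16.7, 24.5 and 22.4 CPM with NXP800 at 6 h. KIF21B at 24 h was at 14.9, 8.78 and 8.72 CPM with DMSO and 29.5, 27.8 and 30.4 CPM with NXP800. DMSO 24 h replicate 1 was high for its group but still below the NXP800 libraries. It rose by 1.36 ± 0.17 (SE, adjusted p = 6.89e-06) at 6 h and by 1.44 ± 0.17 (SE, adjusted p = 2.47e-06) at 24 h, and the difference of these, 0.078 ± 0.24 (SE, adjusted p = 0.851), did not pass. KIF21A read 24, 21.9 and 23.6 CPM with DMSO and 33.2, 31.1 and 30.8 CPM with NXP800 at 6 h. KIF21A at 24 h read 13.4, 14.7 and 16.3 CPM with DMSO and 17.2, 23.5 and 18 CPM with NXP800. It changed by 0.45 ± 0.1 (SE, adjusted p = 0.00173) and 0.40 ± 0.11 (SE, adjusted p = 0.00495).

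**Figure D5:**
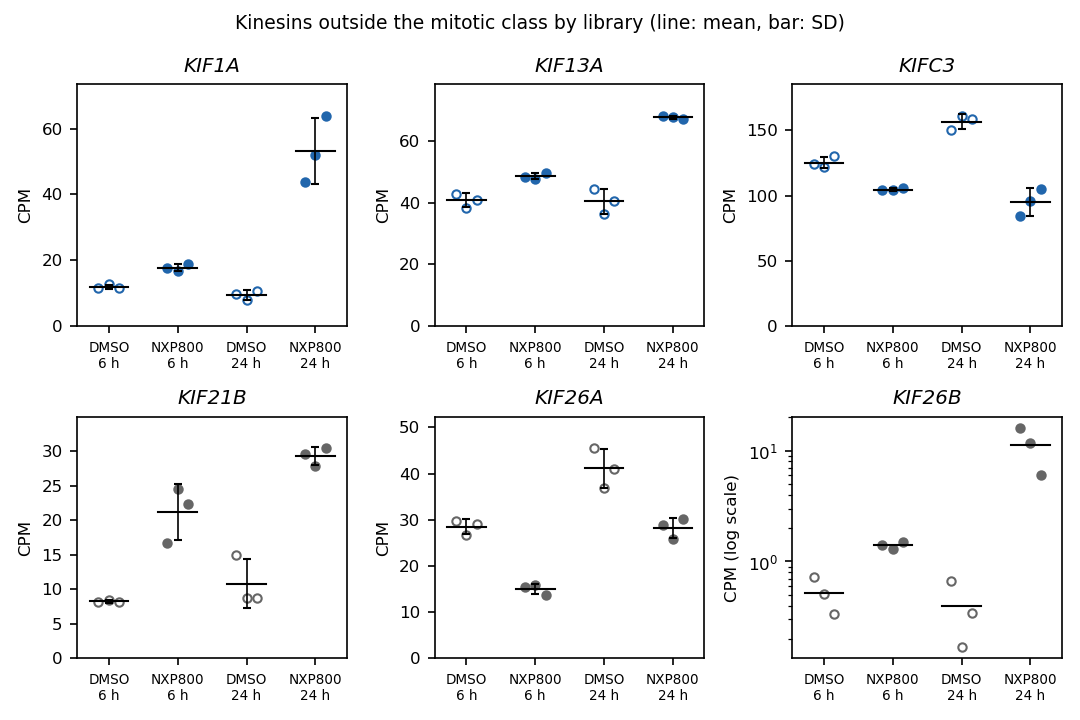
CPM in each library for the transport kinesins KIF1A, KIF13A and KIFC3 (blue) and the other kinesins KIF21B, KIF26A and KIF26B (grey), open points DMSO and filled points NXP800, with lines for means and bars for SD of 3 libraries; the KIF26B axis is logarithmic and has no SD bars, and the other axes start at 0. KIF1A and KIF26B rise mostly between 6 h and 24 h, KIF21B lies above DMSO at both times, and KIFC3 and KIF26A lie below DMSO at both times.

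The remaining members act mainly at centrioles and cilia. KIF24 is a kinesin that disassembles microtubules at the mother centriole and holds back cilium formation. Of the 20 members outside the mitotic class with a promoter window, it alone had both elements near its start, in the stretch chosen afterwards. Over the whole window KIF5B also had both, and KIF5B was not called at 24 h (0.12 ± 0.062, adjusted p = 0.113). Whether the letters bear on the changes was not tested. KIF24 was at 13.6, 13.1 and 12.4 CPM with DMSO and 13.8, 14.8 and 14.8 CPM with NXP800 at 6 h. KIF24 at 24 h read 17.9, 16.8 and 17.6 CPM with DMSO and 11.1, 9.16 and 10.7 CPM with NXP800. It gave 0.15 ± 0.09 (SE, adjusted p = 0.174) at 6 h and -0.76 ± 0.091 (SE, adjusted p = 2.87e-06) at 24 h, with a difference of -0.91 ± 0.13 (SE, adjusted p = 9.32e-05). KIF9, a motile cilium protein, was at 8.93, 8.67 and 8.54 CPM with DMSO and 8.81, 8.81 and 8.29 CPM with NXP800 at 6 h. KIF9 at 24 h was at 8.1, 8.41 and 8.03 CPM with DMSO and 6.67, 5.96 and 6.09 CPM with NXP800. It changed by -0.39 ± 0.097 (SE, adjusted p = 0.00263) at 24 h after -0.012 ± 0.094 (SE, adjusted p = 0.92) at 6 h, and the difference (-0.38, adjusted p = 0.0492) was lost in 11 of the 12 fits without 1 library. An antisense RNA shares 17.8% of its exon length. KIF27 and KIF7 are kinesin-4 relatives, KIF7 being the Hedgehog regulator at the cilium tip, and genes on the opposite strand share 10.7% and 10.8% of their exon lengths. KIF27 read 3.87, 4.41 and 4.47 CPM with DMSO and 4.08, 4.34 and 4.73 CPM with NXP800 at 6 h. KIF27 at 24 h read 2.88, 3.5 and 3.3 CPM with DMSO and 4.49, 4.83 and 4.5 CPM with NXP800. It changed by 0.51 ± 0.13 (SE, adjusted p = 0.00325) at 24 h and KIF7 by 0.32 ± 0.096 (SE, adjusted p = 0.0104). The count of other kinesins higher in the difference of responses was 2 without and 4 with the replicate block. The added members were KIF27 (0.47, adjusted p = 0.0277) and KIF7 (0.30, adjusted p = 0.048). That block raised the calls in the difference among all 15979 tested genes from 4129 to 6284. KIF2A, a kinesin-13 at spindle poles and in neurites, was placed with the others and did not pass at either time, -0.016 ± 0.073 (SE, adjusted p = 0.87) and 0.053 ± 0.073 (SE, adjusted p = 0.561). DIMT1 on the opposite strand shares 21.3% of its exon length. KIF6 did not pass either (-0.14 ± 0.14, adjusted p = 0.432 at 24 h).

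The partners of the mitotic kinesins in the spindle, kinetochore and midbody were lower at 24 h as well. Of 26 such genes, all tested, 10 were lower and 4 higher at 6 h (median log2 fold change -0.13), 26 were lower at 24 h (median -1.12), and 25 were lower in the difference of responses (median -1.05). Of all tested genes 27.8% were lower and 25% higher at 6 h, 28.6% were lower at 24 h and 13.8% in the difference. The largest falls at 24 h were in MKI67, which coats mitotic chromosomes, from 443 ± 17 to 133 ± 15.5 CPM (-1.73 ± 0.11, adjusted p = 3.05e-09), in BIRC5, a subunit of the Aurora B complex, from 269 ± 15.7 to 87.5 ± 7.53 CPM (-1.62 ± 0.075, adjusted p = 1e-10), and in the checkpoint kinase BUB1, from 106 ± 6.23 to 37.8 ± 1.45 CPM (-1.49 ± 0.069, adjusted p = 1.03e-10). At 6 h the largest falls were in TACC3 (-0.69 ± 0.072, adjusted p = 8.91e-07), NUMA1 (-0.43 ± 0.066, adjusted p = 4.15e-05) and BIRC5 (-0.43 ± 0.073, adjusted p = 0.000132), and the largest rises in CKAP5 (0.26 ± 0.058, adjusted p = 0.00145), HMMR (0.24 ± 0.072, adjusted p = 0.0117) and NDC80 (0.19 ± 0.063, adjusted p = 0.02).

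Among 15 genes whose products act at the CHR and CCAAT elements or in their complexes, 6 were lower and 3 higher at 6 h (median -0.13) and 10 were lower and 2 higher at 24 h (median -0.28). These are 40% and 20%, then 66.7% and 13.3%, beside 27.8% and 25%, then 28.6% and 27.5%, of all tested genes. The largest falls at 24 h were in MYBL2 (B-MYB), from 421 ± 12 to 135 ± 15.6 CPM (-1.64 ± 0.075, adjusted p = 9.28e-11), FOXM1, from 308 ± 16.7 to 130 ± 19.8 CPM (-1.24 ± 0.09, adjusted p = 1.02e-08), and TFDP1 (-0.92 ± 0.054, adjusted p = 1.06e-09). At 6 h they were in RBBP4 (-0.81 ± 0.06, adjusted p = 1.9e-08), TFDP1 (-0.73 ± 0.054, adjusted p = 1.86e-08) and NFYA (-0.49 ± 0.06, adjusted p = 5.04e-06). The MuvB subunit LIN37 was higher at both times (1.23 ± 0.15, adjusted p = 3.47e-06, and then 1.05 ± 0.14, adjusted p = 1.06e-05). So was E2F5 (0.24 ± 0.081, adjusted p = 0.0194, and then 0.34 ± 0.083, adjusted p = 0.00226). NFYC was higher at 6 h (0.23 ± 0.063, adjusted p = 0.00512).

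Genes of S phase and replication licensing were mostly lower already at 6 h. Of 16, 14 were lower at 6 h (median -0.54) and 15 at 24 h (median -0.84), with 0 higher at either time and 10 lower in the difference of responses (median -0.36), where the shares of all tested genes called lower were 27.8%, 28.6% and 13.8%. At 6 h GINS1 (-1.04 ± 0.084, adjusted p = 4.9e-08), CCNE2 (-0.91 ± 0.13, adjusted p = 1.51e-05) and PCNA (-0.91 ± 0.071, adjusted p = 3.84e-08) fell farthest. At 24 h these were TYMS (-1.87 ± 0.068, adjusted p = 1.17e-11), RRM2 (-1.35 ± 0.072, adjusted p = 3.7e-10) and PCNA (-1.25 ± 0.072, adjusted p = 9.02e-10). The medians are given side by side, and the contrast between the lists was not tested.

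Light chains and cargo adaptors of the transport kinesins were called in both directions. Of 18, 3 were lower and 8 higher at 6 h (median 0.12), and 5 were lower and 8 higher at 24 h (median 0.007). These are 16.7% and 44.4% at 6 h and 27.8% and 44.4% at 24 h, beside 27.8% and 25%, then 28.6% and 27.5%, of all tested genes. Among mitochondrial adaptors the falls were in RHOT2 at 24 h from 87.1 ± 13.5 to 53.1 ± 4.8 CPM (-0.72 ± 0.11, adjusted p = 3.43e-05), TRAK1 at 24 h (-0.46 ± 0.08, adjusted p = 0.000123), TRAK2 at 6 h (-0.37 ± 0.066, adjusted p = 0.000186) and 24 h (-0.33 ± 0.067, adjusted p = 0.000472) and RHOT1 at 6 h (-0.36 ± 0.091, adjusted p = 0.00353). Among JNK-binding scaffolds the rises were in SPAG9 at 6 h from 121 ± 5.85 to 193 ± 9.12 CPM (0.67 ± 0.069, adjusted p = 7.08e-07) and at 24 h (0.35 ± 0.069, adjusted p = 0.000466), MAPK8IP1 at 24 h (0.38 ± 0.13, adjusted p = 0.0221) and MAPK8IP2 at both times (0.82 ± 0.21, adjusted p = 0.00362, and 1.59 ± 0.19, adjusted p = 3.52e-06). The kinesin-binding protein KIFBP was lower at 6 h (-0.25 ± 0.065, adjusted p = 0.00405) and 24 h (-0.21 ± 0.065, adjusted p = 0.0122). KIFAP3 was higher at 6 h (0.30 ± 0.089, adjusted p = 0.00919) and 24 h (0.42 ± 0.088, adjusted p = 7e-04). Light chain KLC2 was higher at both times (0.22 ± 0.067, adjusted p = 0.0101, and 0.27 ± 0.067, adjusted p = 0.0027), and KLC1 was lower at 24 h (-0.21 ± 0.062, adjusted p = 0.00848).

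Cytoplasmic dynein, the minus-end motor that works against the transport kinesins, was listed with its cofactor dynactin and with adaptors and regulators such as BICD2 and NDE1. Of the 28 listed genes 26 were tested. At 6 h 6 were lower and 9 higher (median 0.077), and at 24 h 8 were lower and 8 higher (median 0.086). The 24 h shares of 30.8% each way were near those of all tested genes (28.6% lower and 27.5% higher), and at 6 h 23.1% and 34.6% stood beside 27.8% and 25%. BICD2 (-0.78 ± 0.08, adjusted p = 6.72e-07), DYNLL1 (-0.70 ± 0.092, adjusted p = 8.77e-06) and DYNC1I1 (-0.60 ± 0.21, adjusted p = 0.0262) fell farthest at 6 h. DYNC1I1 (-1.46 ± 0.24, adjusted p = 8.04e-05), NDE1 (-0.63 ± 0.061, adjusted p = 2.77e-07) and DCTN3 (-0.46 ± 0.075, adjusted p = 6.86e-05) did so at 24 h. DYNC1I1 was scarce, at 1.33 ± 0.237 CPM with DMSO and 0.48 ± 0.0733 CPM with NXP800 at 24 h. The largest rises were in ACTR1B (0.53 ± 0.09, adjusted p = 0.000113), DCTN4 (0.49 ± 0.06, adjusted p = 5.35e-06) and the heavy chain DYNC1H1 (0.41 ± 0.11, adjusted p = 0.00391) at 6 h, and in DYNLL2 (0.37 ± 0.066, adjusted p = 0.000181), DYNC1I2 (0.36 ± 0.074, adjusted p = 0.000568) and DYNC1H1 (0.29 ± 0.11, adjusted p = 0.0303) at 24 h.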

How the data were processed

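RNA from MNNG/HOS cells was sequenced by the authors as strand-specific mRNA libraries on DNBSEQ. The deposited values are raw counts of reads per gene symbol, with no normalization. Per the labels and the submitters' processing notes, reads were trimmed with fastp 0.20.1, aligned with STAR 2.7.5a to hg38 and counted with HTSeq 0.12.4 on RefSeq genes of GRCh38.p14. The strand setting and the handling of overlapping genes are not given in the sources used here, so that reads of a gene and of a partner on the opposite strand may not be told apart. The 5 summary rows of the counter, which belong to no gene, did not enter library totals or tests.

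Groups were taken from the sample labels. In R 4.3.3 with edgeR 4.0.16 and limma 3.58.1, filterByExpr, TMM scaling and the quasi-likelihood test were used in a single model of the 4 groups (residual degrees of freedom 8, common dispersion 0.007231). Contrasts were NXP800 against DMSO at 6 h, at 24 h, and the 24 h response minus the 6 h response, called at a Benjamini-Hochberg adjusted p below 0.05 over 15979 genes. SE is the log2 fold change divided by the square root of F. Replicate pairs of a group differed beyond counting noise (chi-square per degree of freedom 7.36 to 26.3 for genes of 20 counts or more), and each library was kept as its own replicate. No label says whether replicate numbers pair the samples, so the main model left them out and a replicate block was an alternative. In the data, deviations from the group mean of same-numbered DMSO and NXP800 libraries correlated at 0.159, 0.262 and 0.329 at 6 h. At 24 h they correlated at 0.322, 0.298 and 0.284. Those of different numbers correlated at 0.058 at most. Deviations cancel within a group, which lowers the values of different numbers when those of the same number are positive. The tests were first checked on simulated counts in which 200 genes were changed 2-fold. The main fit recovered 195 of these at 6 h, 195 at 24 h and 186 in the difference of responses. The simulation gave all genes a single dispersion and paired no replicates, so it does not measure error rates in these data.

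The members, their classes and the other lists were chosen with earlier results of these data known. Each member called in the difference of responses or by more than 2-fold is given with its values in every library, as are the 3 largest called changes each way per class and time and 9 members fixed by name, and for the other lists the 3 largest called changes each way, with KIFAP3, KLC1, KLC2, MAPK8IP1 and the other called time of SPAG9 and KIFBP added after their values were seen. Some genes of the other lists that this rule names are not reported here. Exon overlaps and canonical transcript lengths came from GENCODE v44, and promoters from RefSeq GRCh38.p14. Alternatives were DESeq2 1.42.0 and its size factors, scaling by library size, other filters on low counts, separate fits per time, a replicate block, other thresholds, another division into classes and each library left out.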

Additional observations from a re-analysis of the deposited data

Results flagged for a closer look

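For 21 of the 37 tested kinesins the response to NXP800 differed between the times. The edgeR test of the 24 h response minus the 6 h response gave the calls, at an adjusted p below 0.05 over 15979 genes. Of the 37, 45.9% were lower and 10.8% higher, beside 13.8% and 12% of all tested genes. For transport kinesins the shares were 20% and 13.3%, and for the others 20% each way. Values are differences of log2 fold changes, so that a negative value means a lower response at 24 h. Groups of 3 libraries are too small for a check of single outlying samples, and none was made.

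Among mitotic kinesins the differences were -1.57 for KIF20A (adjusted p = 3.63e-07), -1.52 for KIF14 (9.79e-07), -1.23 for KIF18A (3.66e-06), -1.18 for KIF23 (1.55e-06), -1.07 for KIF11 (2.13e-06), -1.06 for KIFC1 (3.75e-06), -1.02 for KIF4A (1.77e-05), -0.96 for KIF15 (2e-05), -0.94 for KIF2C (7.03e-05), -0.91 for KIF20B (5.96e-06), -0.89 for KIF18B (0.00053) and -0.69 for KIF22 (7.94e-05). KIF14 and KIF18A were called higher at 6 h and lower at 24 h, although both 6 h calls were lost on leaving out single libraries. Among transport kinesins they were -0.48 for KIF3C (0.0333), -0.46 for KIFC3 (0.00297), -0.38 for KIF1B (0.00418), 0.49 for KIF13A (0.0024) and 1.92 for KIF1A (3.15e-06). Among the others they were -0.91 for KIF24 (9.32e-05), -0.38 for KIF9 (0.0492), 0.38 for KIF26A (0.0373) and 3.40 for KIF26B (0.00127). The value of KIF26A is positive because its fall was smaller at 24 h than at 6 h.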

How the results depend on the processing

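Over 19 alternative settings, 2066 values of members were recomputed. Of these, 1992 kept their direction and side of the threshold or passed in neither fit (62 of them with the other sign), 59 lost the call, 15 gained it and 0 turned over. The mitotic counts of 12 lower at 24 h and 12 lower in the difference of responses stayed at 12 under each setting. Counts that moved by more were mostly small ones. With a log2 fold change beyond 0.5 also required, mitotic kinesins at 6 h went from 6 to 1 lower and from 2 to 0 higher, transport kinesins at 6 h from 4 to 1 lower and from 4 to 1 higher, transport kinesins at 24 h from 4 to 2 lower and from 4 to 2 higher, and transport kinesins in the difference from 3 to 0 lower and from 2 to 1 higher. At an adjusted p below 0.01, mitotic kinesins higher at 6 h were 0 and transport kinesins higher at 24 h 2. With no filter on low counts 1 mitotic kinesin was higher at 6 h. Leaving out each library in turn gave 0 to 2 mitotic kinesins higher at 6 h (0 without NXP800 6 h replicate 3), and at 24 h 2 to 4 transport kinesins lower and 2 to 5 higher.

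The replicate block (residual degrees of freedom 4) is given above beside KIF4A, KIF22, KIF3C and KIF13B at 6 h and KIF5A, KIF27 and KIF7 in the difference, and changed no other call of a member. With no filter, the calls of KIF18A (adjusted p = 0.0569) and KIF5C (0.0796) at 6 h, KIF13B at 24 h (0.0564) and KIF9 in the difference (0.228) were also lost. The KIF3C difference was lost in 7 of the 12 fits without 1 library (0.0527 to 0.0813) and with library size scaling (0.0527), which gained KIF3B at 24 h (0.18, adjusted p = 0.0437), KIF5C (0.35, adjusted p = 0.0493) and KIF27 (0.54, adjusted p = 0.0458) in the difference. That scaling moved the median of all genes at 24 h from -0.003 to 0.086. Where no cause is named, the cause was not tested. KIF17, KIFC2 and KIF5A, with under 7 CPM, had standard errors of 0.18 to 0.46 in log2 units at 24 h. Small changes in them were not detectable. KIF27, also under 7 CPM, had a standard error of 0.13 at 24 h and was called.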

Other observations

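CENPE and STARD9 are kinesin genes whose symbols fall outside the rule for members. CENPE, the kinetochore kinesin-7 that carries chromosomes to the spindle equator, was at 52.4 ± 6.24 CPM with DMSO and 58.4 ± 5.14 CPM with NXP800 at 6 h (mean ± SD, n = 3), and at 40.4 ± 2.95 and 16.1 ± 2.42 CPM at 24 h. Its log2 fold changes were 0.16 ± 0.1 (SE, adjusted p = 0.221) and -1.33 ± 0.11 (adjusted p = 5.49e-08). STARD9, a large centrosomal kinesin, was at 7.09 ± 0.852 and 6.91 ± 1.08 CPM at 6 h and at 10.9 ± 2.04 and 11 ± 2.15 CPM at 24 h, with changes of -0.038 ± 0.17 (adjusted p = 0.866) and 0.009 ± 0.16 (adjusted p = 0.968). CENPE is also counted among the mitotic partners.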
